A study of Mus musculus with 10 samples.

Results

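The genes described here are 41 genes of mitosis, the phase in which a cell divides its copied chromosomes between its daughters, measured on mouse colon arrays that set Trp53 knockout against wild type. Members were the genes of a fixed list of names, found on the array as non-control probes that carry one of those names. All 41 were on the array, with 81 probes, among 25160 genes that could be named there. Each gene was read from its brightest probe. All 41 members were tested in colon tissue, among 13810 genes, and 24 of 41 were tested in colon organoids, among 9894 genes, because the scanner software marked spots of the other 17 as outliers on arrays that the organoid model needs. For those 17, values with the marked spots included are given and named as such.

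The series held 10 Agilent 2-colour arrays, on which 2 samples labelled with Cy3 and Cy5 are hybridised together and compared as a ratio. Tissue samples were whole colon of male mice from a cross of Axin2CreERT2, a tamoxifen-inducible recombinase under a promoter active in Wnt-responding cells, with Trp53 fl/fl. These mice received tamoxifen, then 2% dextran sodium sulfate (DSS), a polymer that injures the colon epithelium, in drinking water for 5 to 7 days. RNA was taken 2 months after DSS. Of these, 2 KO mice were each set against 1 WT mouse, once in each dye orientation, which gives 2 independent mouse pairs. The organoids were epithelial cultures grown in a gel from colon crypts of VillinCreERT2 x Trp53 fl/fl mice, with a recombinase active in intestinal epithelium. KO cultures had been given 800 nM 4OH-tamoxifen for 2 days and then kept in Nutlin-3A, which arrests cells with intact p53, until they were pure KO. WT and KO organoids grew in full medium with 0.328 nM surrogate Wnt, 3 µM CHIR (a GSK3 inhibitor that turns on Wnt signalling), 25% R-spondin medium, 100 ng/ml noggin, 50 ng/ml EGF and 0.5 µM A83-01. KOWI organoids were KO cultures called Wnt-independent and grown without the Wnt surrogate and CHIR. Each organoid group had 2 replicates, and the labels do not say whether they came from separate mice, so organoid p-values measure the spread between these samples only, which may be technical. Neither the ages of the mice nor the alleles carried by the WT samples are given in the sources used here.

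Mitosis is driven by cyclin-dependent kinase 1 with its B-type cyclins, followed by Polo-like and Aurora kinases that build the spindle and attach chromosomes to it. A surveillance system, the spindle checkpoint, holds cells before anaphase until every kinetochore is attached, and the anaphase-promoting complex then destroys cyclin B and securin. Transcripts of these genes peak together in late S, G2 and M phase and are low in resting cells, so they serve as markers of how many cells of a tissue are cycling. In the colon such cells lie in the lower crypt. After activation of p53, many of these genes are switched off through the repressive DREAM complex, which is known to act at a short promoter element called CHR together with CCAAT boxes.

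The promoters of 35 members were in a RefSeq promoter table (GRCm38.p6), as 38 sequences of 300 bases, 250 before to 50 after a transcript start. Each was searched on both strands for the CHR, spelled TTTGAA in its common form and TTTAAA in a less common one, and for the CCAAT box. The E2F site was searched as TTCCCGC with either C or G at the third and the fourth base. The letters TTTGAA occurred in 26 of 38 member promoters, or 68.4%, against 17.9% of all 32851 promoters of that length. CCAAT occurred in 73.7% of member promoters against 37.4% of all, TTTAAA in 26.3% against 13.2%, and an E2F spelling in 18.4% against 9.57%. A CCAAT that starts 25 to 40 bases before a TTTGAA, a spacing chosen after the positions had been seen, was found in 15 member promoters, or 39.5%, against 0.645% of all. Printed here is the stretch from within the upstream window to 25 bases after the start, 5′ to 3′ in the direction of the gene, with capitals that mark TTTGAA and the CCAAT box on either strand. They show Cdk1 and Ccnb2, the kinase and a cyclin that bring cells into mitosis, and Ttk and Ect2, which had high ratios in the organoids. Cdc20 is shown because the ratios of its brightest probe stayed near 0, and Nusap1 because it had high ratios and no such letters in its window.
Cdk1, chr10:69352888-69353037, minus strand: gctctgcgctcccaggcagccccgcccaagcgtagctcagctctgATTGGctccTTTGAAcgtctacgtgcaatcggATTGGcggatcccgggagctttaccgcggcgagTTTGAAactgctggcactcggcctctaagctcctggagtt
Ccnb2, chr9:70421530-70421679, minus strand: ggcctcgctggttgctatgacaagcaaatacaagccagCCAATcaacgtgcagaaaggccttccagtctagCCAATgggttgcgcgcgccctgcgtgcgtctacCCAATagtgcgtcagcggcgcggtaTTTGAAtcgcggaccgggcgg
Ttk, chr9:83834564-83834713, plus strand: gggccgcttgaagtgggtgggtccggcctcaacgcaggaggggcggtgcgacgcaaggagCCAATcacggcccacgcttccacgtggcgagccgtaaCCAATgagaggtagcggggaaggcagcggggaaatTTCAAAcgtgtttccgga
Ect2, chr3:27153830-27153979, minus strand: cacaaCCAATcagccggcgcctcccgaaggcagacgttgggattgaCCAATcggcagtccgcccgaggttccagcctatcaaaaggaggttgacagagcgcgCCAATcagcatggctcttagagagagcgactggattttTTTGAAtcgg
Cdc20, chr4:118437319-118437468, minus strand: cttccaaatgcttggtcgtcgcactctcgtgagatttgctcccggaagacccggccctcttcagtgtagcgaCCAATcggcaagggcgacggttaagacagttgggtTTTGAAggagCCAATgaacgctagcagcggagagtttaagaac
Nusap1, chr2:119618173-119618322, plus strand: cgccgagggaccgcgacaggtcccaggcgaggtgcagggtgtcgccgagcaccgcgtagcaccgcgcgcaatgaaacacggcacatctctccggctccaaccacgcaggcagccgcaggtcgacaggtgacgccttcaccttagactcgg
From CCAAT to TTTGAA the distance between first bases was 25 in Ccnb2, at the lower edge of the chosen spacing, 33 in Cdk1, 35 in Ttk, 35 in Cdc20 and 38 in Ect2. In Ttk the element stands on the opposite strand, as TTCAAA. The match is a description of letters in these windows and not evidence of a bound site.

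Each member was well above background in tissue and in at least 1 organoid group, and none of their probes was saturated. Outlier marks were uneven: they covered 1.27% and 2.65% of spots on the organoid arrays that hold KO and WT, but 13.9% to 16.3% on the 4 organoid arrays that hold KOWI, and 24 members had a marked spot on at least 1 of those 4. In the organoids all replicates 1 carried Cy3 and all replicates 2 carried Cy5, and a dye effect cannot be told apart from a replicate effect. The samples are called WT1, WT2, KO1, KO2, KOWI1 and KOWI2 by group and replicate number. Trp53 itself lay below WT in both organoid replicates, by log2 -1.07 and -0.59, whereas in whole tissue the pairs gave -0.46 and 0.04; the labels do not say which part of the transcript was deleted. Defining markers of colon epithelium were above background in every organoid channel (13 of 13), as were 9 of 10 crypt base and 4 of 6 squamous markers. So were 5 of 7 myeloid, 4 of 6 smooth muscle, 2 of 6 T cell, 2 of 5 endothelial, 1 of 6 skeletal muscle, 1 of 8 fibroblast and 0 of 8 B cell markers. In no organoid channel above background were 4 B cell markers (Cd79a, Cd79b, Fcer2a and Pax5), 2 fibroblast markers (Col1a2 and Dcn) and 1 myeloid marker (Adgre1). The same held for 1 T cell marker (Cd3g), 2 endothelial markers (Cdh5 and Kdr) and 2 skeletal muscle markers (Myh4 and Myh1).

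In the organoids, whether mitosis genes stood above WT in KO cultures depended on the array. Of the 2 arrays that hold KO and WT together, the one with KO1 and WT2 gave a positive log2 ratio for 39 of 41 members, with a median of 1.35 and a range from -0.10 to 2.39. The array with KO2 and WT1 gave a positive ratio for 18 of 41, with a median of -0.02 and a range from -0.50 to 0.46. Over 14665 genes the medians of the same arrays were 0.06 and -0.01, which the normalization within each array sets near 0, and the spread of the ratios (median absolute deviation) was 0.43 on the first and 0.23 on the other. On the first, 29 members exceeded a log2 ratio of 1, which is a doubling, and on the other none did. Both arrays were above 0 for 18 members, or 18 of 41 against 24.4% of all genes, and both were below 0 for 2 members against 20.1% of all genes.

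**Figure D1:**
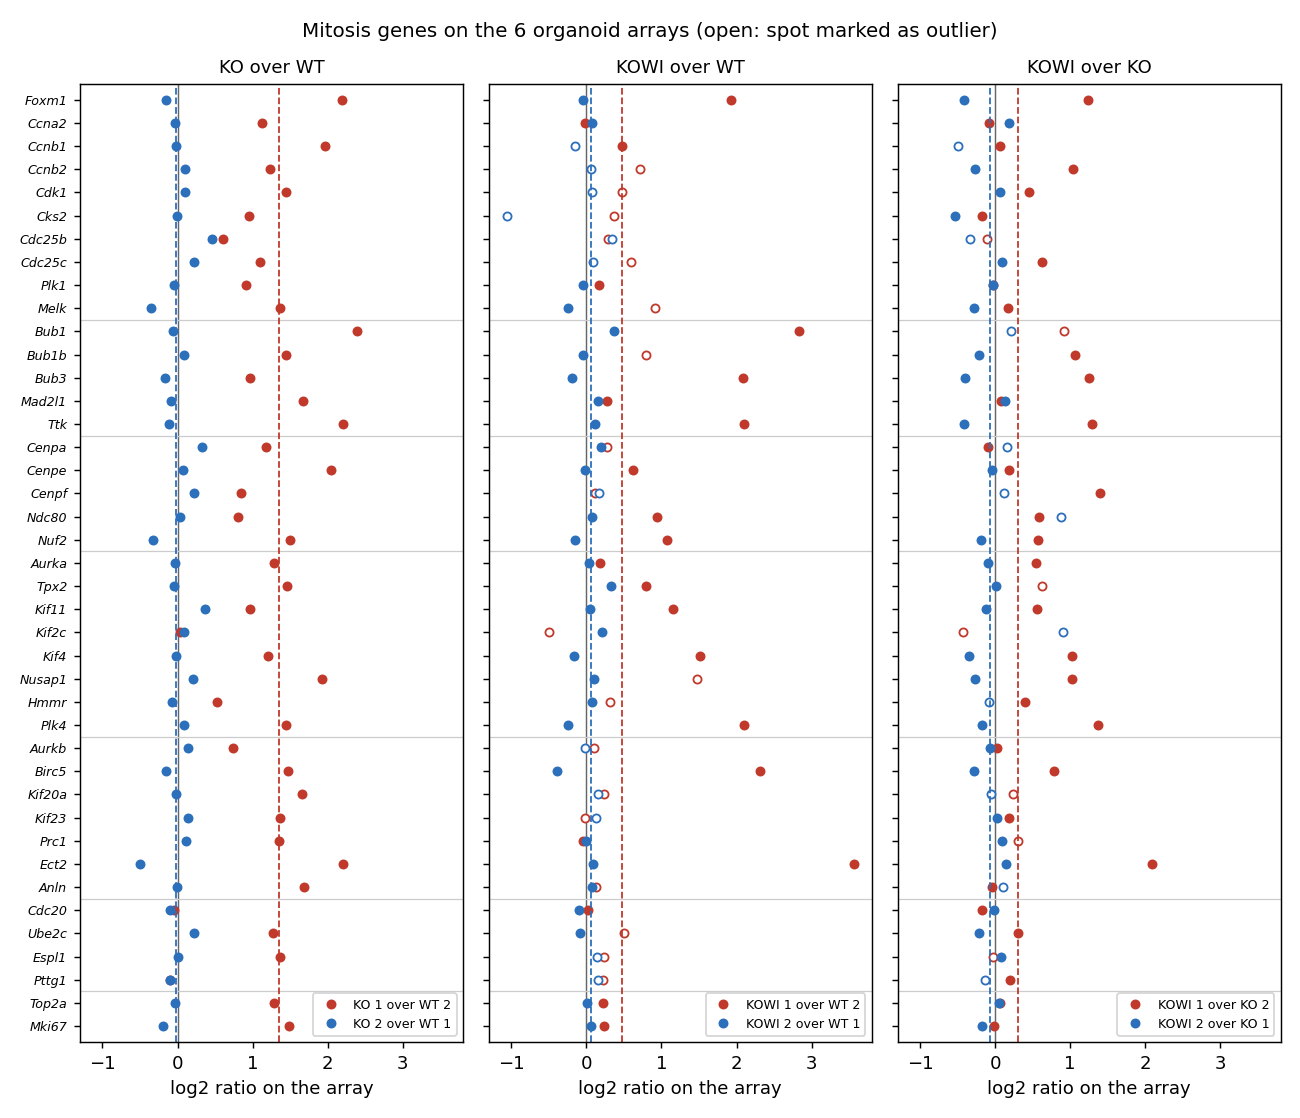
Log2 ratio of each of the 41 mitosis genes on each of the 6 organoid arrays, grouped by role from mitotic entry at the top to chromosome structure at the bottom, with all spots included. Red and blue mark the 2 arrays of each comparison, open symbols are spots marked as outliers and dashed lines are medians over the members; in the left panel the red points lie mostly above 1 and the blue points all lie within 0.50 of 0.

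Mki67, the proliferation marker that coats mitotic chromosomes, had a log2 ratio of 1.49 on the KO1/WT2 array and -0.19 on the KO2/WT1 array. Its probe lies at chr7:142881591-142881650 on mm9. Top2a, the topoisomerase that untangles sister chromosomes, had 1.29 and -0.03. The 2 arrays therefore disagreed on whether either gene was higher in KO. Among the genes of mitotic entry, Foxm1, a transcription factor that activates G2 and M phase genes, had 2.19 and -0.16. Cdk1, the kinase that starts mitosis, had 1.44 and 0.10, and Ccnb1, its cyclin partner, had 1.96 and -0.02. Plk1, which helps activate Cdk1 and build the spindle, had 0.91 and -0.05. Of the 10 entry genes, all were above 0 on the first array and 4 were on the other. Cdc25b, a phosphatase that removes inhibitory phosphate from Cdk1, was the member on which the arrays agreed best among those with a ratio clearly above 0, at 0.60 and 0.46.

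The spindle checkpoint genes had the highest role median on the KO1/WT2 array, at 1.67, and a median of -0.09 on the other. Ttk, the kinase that starts checkpoint signalling, had 2.20 and -0.12, and Bub1, a checkpoint kinase at the kinetochore, had 2.39 and -0.06. Bub1b, which with Mad2l1 restrains the anaphase-promoting complex, had 1.44 and 0.09. Kinetochore genes had role medians of 1.18 and 0.07, with Cenpe, the kinetochore motor that moves chromosomes to the spindle equator, at 2.05 and 0.07. Spindle genes had 1.25 and 0.03, with Nusap1, a microtubule-bundling protein, at 1.92 and 0.21. Cytokinesis and passenger genes had 1.47 and -0.01. Within that role Birc5 (survivin) had 1.47 and -0.16, Aurkb, the kinase of the passenger complex, had 0.74 and 0.14, and Ect2, which activates RhoA for the cleavage furrow, had 2.21 and -0.50. Ratios near 0 on the KO1/WT2 array were seen for Cdc20, an activator of the anaphase-promoting complex, at -0.05 and for Pttg1 (securin) at -0.10; a second, dimmer Cdc20 probe gave 0.58. The microtubule depolymerase Kif2c had 0.03, but its probe was above background in KOWI and not in WT or KO, so it gives no ratio of KO over WT although it stays in the counts over 41 members. The other Kif2c probe, used in tissue, gave 1.04 on that array.

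Each sample was also placed on a common scale by least squares over the 6 arrays, relative to the mean of WT1 and WT2. With all spots included, the median member stood at 0.37 in WT1, -0.37 in WT2, 0.78 in KO1, 0.21 in KO2, 0.32 in KOWI1 and 0.53 in KOWI2. Over all 14665 genes the medians of the 6 samples lay between -0.03 and 0.05. The median member was lowest in WT2 and highest in KO1. KO2 lay between the WT samples, so at the median the groups overlapped across replicates. KO2 carried Cy5 and WT1 carried Cy3, and the part of the dye in this order was not tested. Within a replicate number, which shares the dye, the median member was higher in KO, at 0.78 against 0.37 and at 0.21 against -0.37. The values in the 6 samples for Mki67 were 0.42 and -0.42 in WT, 0.93 and 0.10 in KO, and -0.05 and 0.62 in KOWI. For Ttk they were 0.65 and -0.65 in WT, 1.42 and 0.40 in KO, and 1.57 and 0.89 in KOWI. In both genes KO2 lay between the WT samples, and KO1 lay above both.

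**Figure D2:**
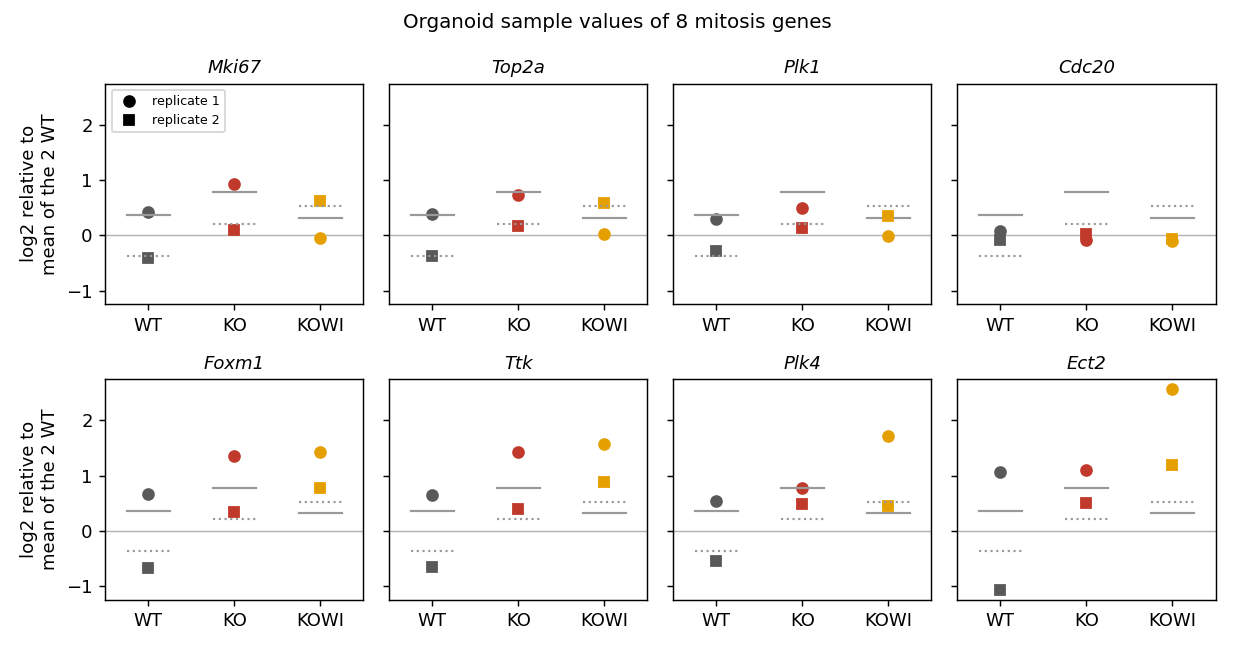
Values of 8 mitosis genes in the 6 organoid samples, as log2 relative to the mean of the 2 WT samples, from the least squares fit with all spots included. Circles are replicate 1 and squares replicate 2; short grey lines give the median over all 41 members in that sample, solid for replicate 1 and dotted for replicate 2, and WT replicate 2 is the lowest sample for the genes shown other than Cdc20.

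The arrays can be checked against each other because they form a closed loop, so that ratios summed once round the 6 arrays give 0 where all arrays agree. The sum was 0.06 at the median of 14665 genes, with an interquartile range from -0.23 to 0.37. For the 41 members it was 0.96 at the median, with an interquartile range from 0.57 to 1.34, and it was above 0 in 36, or 87.8%, against 55.1% of all genes. The sum was 1.90 for Prc1, a cross-linker of the central spindle, and 2.31 for Cenpf, a kinetochore protein. Bub3 had -0.26 and Birc5 -0.10. A difference between samples cancels in this sum, so sums away from 0 are disagreement between arrays.

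In the model that averages both replicates, no member passed an adjusted p of 0.05 (limma, Benjamini-Hochberg over all genes) in KO against WT, and no gene of the 9894 tested did (0%). At an unadjusted p under 0.05 there were 6 members of 24 and 539 genes in all. The median over the 24 members was 0.57, with 23 positive, against 0.05 over all genes tested. The replicate ratios derived from the loop are KO1 over WT1 and KO2 over WT2, which share arrays and are not independent. They had member medians of 0.28 and 0.88. Nusap1 gave 0.35 and 1.75, a 2.07-fold mean (log2 1.05, SE 0.34, adjusted p = 0.794). With all spots included Nusap1 had 0.81 and 0.88 (log2 0.85), and Bub1 was the highest member at 1.12. Ttk gave 0.76 and 1.04, a 1.87-fold mean (log2 0.90, SE 0.27, adjusted p = 0.753), and Foxm1 gave 0.68 and 0.98, a 1.78-fold mean (log2 0.83, SE 0.26, adjusted p = 0.787). Next came Ect2 at 0.79 and Cenpe at 0.77, and the lowest of the 24 were Cdc20 at -0.04, Plk1 at 0.31, Ccna2 (cyclin A2) at 0.35, Aurka at 0.38 and Ndc80 at 0.42. Of the key members, Mki67 had 0.50 in both replicates (SE 0.42), Top2a 0.43, Birc5 0.66 and Bub1b 0.76. With all spots included Bub1b had 0.49, Cdk1 0.52, Ccnb1 0.77 and Aurkb 0.31. Single samples and arrays set the size. The member median was 0.16 without WT replicate 2 (21 members), 0.34 without KO replicate 1 and 0.53 without KO replicate 2. It was 0.78 without WT replicate 1 (17 members), 0.67 without KOWI replicate 1 and 0.64 without KOWI replicate 2. With all 41 members and all spots it was 0.51. It was then 0.66 without any 1 of the arrays that hold KOWI, but 0.16 when either of the arrays that hold KO and WT together was left out. The remaining path through the loop is then the same, so this does not tell which of the arrays differs.

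The organoid arrays carried other differences whose part in these values was not tested. G1/S and replication genes also failed to close round the loop, with a median sum of 0.77 over 34 genes. That sum runs over the whole loop and cannot be assigned to any single array. The 10 markers of crypt base and stem cells had a median of 0.93 on the KO1/WT2 array and -0.02 on the KO2/WT1 array. The 13 colon epithelium markers had -0.19 and -0.03. Other probes give the same picture on the 2 arrays that hold KO and WT. There 26 further member probes above background, for 18 genes, had a median of 0.90 on the KO1/WT2 array, where 23 were above 0. On the KO2/WT1 array their median was 0.02, and 15 were above 0.

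In Wnt-independent KO organoids too, the mitosis gene ratios over WT differed between the arrays. On the KOWI1/WT2 array 37 of 41 members were above 0, with a median of 0.47, and on the KOWI2/WT1 array 25 were, with a median of 0.06. Above 1 were 11 members on the first and none on the second. On both arrays 22 members were above 0, against 23.7% of all genes, and 1 was below 0, against 26.3%. The members did not behave alike on the KOWI1/WT2 array. Ect2 had 3.57, Bub1 2.83, Birc5 2.31, and Ttk, Plk4 and Bub3 between 2.09 and 2.10, while Mki67 had 0.23, Top2a 0.22, Plk1 0.17, Ccna2 -0.02, Prc1 -0.04 and Cdc20 0.02. Dimmer probes above background did not all keep this split on that array. They gave 1.06 and -0.12 for Ect2, 0.69 for Birc5, 0.58 and 1.13 for Plk4, and 1.88 for Ttk. For Prc1 they gave 1.17, 0.26 and 1.08, for Top2a 0.50, -0.62 and 1.31, for Ccna2 0.42 and for Cdc20 -0.07. Of 41 members, 31 were lower there than on the KO1/WT2 array.

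This split moved with spot brightness. The median KOWI1/WT2 ratio was 1.01 for the 14 members with the dimmest probes, 0.32 for the next 14, and 0.22 for the 13 members with a log2 intensity of 14 and over. On the KO1/WT2 array these groups had 1.32, 1.37 and 1.28. Across the 41 members the rank correlation of ratio with intensity was -0.41 on the first array and -0.05 on the other, as a description over genes that share arrays. The part of brightness in the ratios was not tested. The spot of 19 members on the KOWI1/WT2 array was marked as an outlier.

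In the averaged model 521 of 9894 genes passed the threshold in KOWI against WT (5.27%), with 323 higher and 198 lower, and none of the 24 members tested was among them. Of the 24, 9 had an unadjusted p under 0.05, beside 2275 of all 9894 genes. The member median was 0.53, with 22 positive and replicate medians of 0.19 (KOWI1 over WT1) and 1.13 (KOWI2 over WT2), against 0.01 over all genes. Ect2 came nearest, with 1.36 and 2.29 in the 2 replicates, a 3.54-fold mean (log2 1.82, SE 0.36, adjusted p = 0.0519). Its probe lies at chr3:26996278-26996337 on mm9, and dimmer Ect2 probes gave lower ratios on the KOWI1/WT2 array, as described. Nusap1 had 1.06 and 1.74 (log2 1.40, adjusted p = 0.0797) and Ttk had 0.68 and 1.65 (log2 1.16, adjusted p = 0.0709). Bub1b had 0.92 and 1.34 (log2 1.13), Foxm1 0.57 and 1.5 (log2 1.04), and Plk4, the kinase that starts centriole duplication, 0.92 and 1.09 (log2 1.01, adjusted p = 0.0757). With all spots included Nusap1 had 1.01 and Bub1b 0.65 in this contrast. The 6 members named were above 0 in both replicates, yet none passed. Mki67, in contrast, had -0.52 and 1.06, Top2a -0.36 and 0.95, and Plk1 -0.30 and 0.63, so the replicates disagreed in sign. The lowest 5 were Cdc20 at -0.09, Prc1 at -0.04 (replicates -1.52 and 1.44), Plk1 at 0.17, Ccna2 at 0.21 and Mki67 at 0.27. Birc5 had 0.92, and with all spots included Cdk1 had 0.53, Ccnb1 0.36, Aurkb 0.17 and Bub1 1.64. The member median was 0.00 without KOWI replicate 2 and 0.99 without KOWI replicate 1. It was 0.41 without KO replicate 1, over the 18 members that could be fitted, and 0.90 without WT replicate 1, over 17.

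Between KOWI and KO the members showed no common direction. The medians were 0.31 on the KOWI1/KO2 array, with 31 of 41 above 0, and -0.07 on the KOWI2/KO1 array, with 16 above 0. On both arrays 11 members were above 0, against 21.3% of all genes, and 5 were below 0, against 25.3%. In the averaged model the member median was 0.02, with 13 of 24 positive, against -0.04 over all genes, and no member was among the 42 genes called (0.424%). Ect2 was the highest, with 1.31 and 0.76 in the replicates, a 2.05-fold mean (log2 1.04, SE 0.36, adjusted p = 0.286), followed by Bub3 at 0.45, Plk4 at 0.39, Bub1b at 0.36 and Nusap1 at 0.35. The lowest were Prc1 at -0.76, Mki67 at -0.23, Cenpe at -0.21, Tpx2 at -0.20 and Top2a at -0.14. Prc1's place rests on a spot marked as an outlier: with all spots kept it had -0.12, with 0.29 in KOWI against WT, and the lowest members were Cks2 at -0.50 and Ccnb1 at -0.41. Of the rest, Foxm1 had 0.21, Ttk 0.26, Birc5 0.26, Plk1 -0.14 and Cdc20 -0.05, and with all spots Cdk1 had 0.00, Ccnb1 -0.41 and Aurkb -0.14. KOWI1 relative to KO1 and KOWI2 relative to KO2 pointed in opposite directions for Mki67, at -1.02 and 0.56. Since KO and KOWI differ in medium and in how the cultures were derived, these cannot be told apart.

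In colon tissue 2 months after DSS, mitosis gene ratios of KO over WT mice lay close to 0. The median log2 ratio over the 41 members was -0.02, with 16 positive and 25 negative, against 0.00 over 13810 genes, and the pair medians were -0.01 and -0.04. No member and no gene passed the threshold (0%; 2025 genes and 2 members had an unadjusted p under 0.05, namely Bub1 and Cks2). With all spots included, 7 members were above 0 in both pairs, against 31.9% of all genes, and 19 were below 0 in both, against 34.6%. Mki67 had 0.00 and -0.03 in the mouse pairs, Top2a 0.04 and 0.00, Foxm1 0.11 and -0.12, Plk1 -0.11 and 0.02, Cdk1 -0.17 and 0.01, and Ccnb1 0.21 and -0.05. Birc5, Aurkb and Cdc20 had means of -0.01, -0.07 and 0.03.

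**Figure D3:**
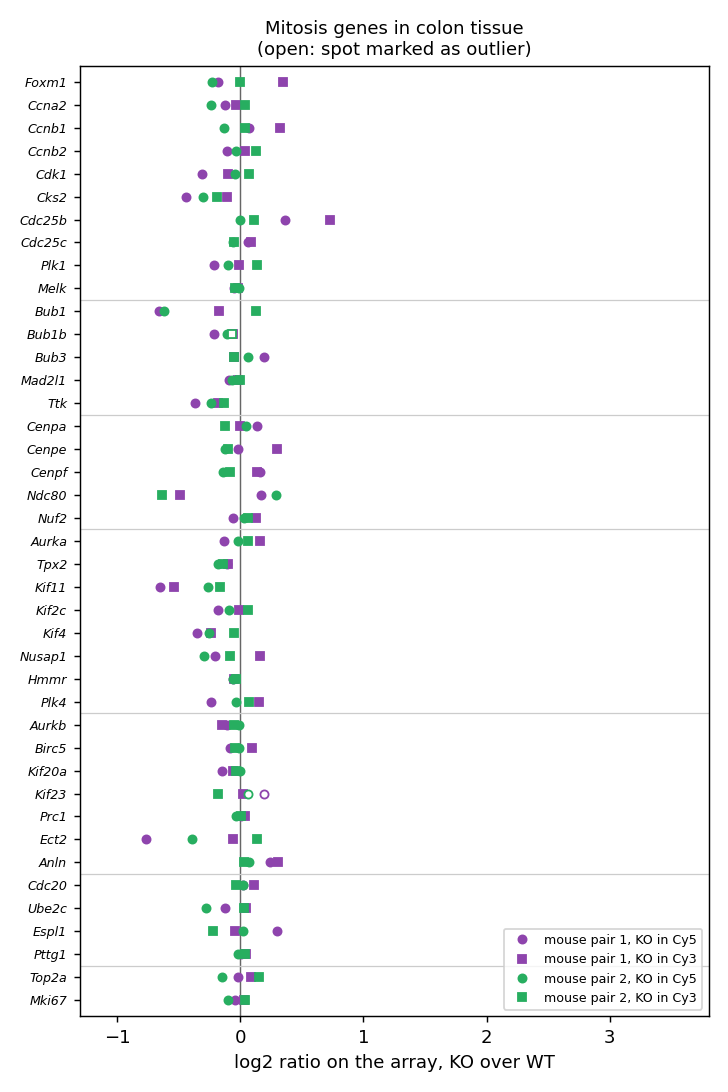
Log2 KO over WT ratio of each of the 41 mitosis genes on each of the 4 tissue arrays, in the same order of roles and on the same scale as the organoid plot. Colours mark the 2 mouse pairs and symbols the dye of the KO mouse, with hollow symbols for spots marked as outliers; the points lie between -0.76 and 0.73.

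The lowest members in tissue were Kif11, the motor that pushes spindle poles apart, with -0.59 and -0.22 in the pairs (log2 -0.41, SE 0.13, adjusted p = 0.366), and Bub1 with -0.39 and -0.25 (log2 -0.32, SE 0.08, adjusted p = 0.311). Ect2 and Cks2, which encodes a small subunit that binds Cdk1, followed at -0.26 each. Ttk had -0.25 and -0.19 (log2 -0.22, adjusted p = 0.341) and Bub1b -0.11 and -0.09. All 4 arrays were below 0 for Kif11, at -0.65, -0.54, -0.26 and -0.16, whereas for Bub1 they were -0.66, -0.17, -0.62 and 0.13, with the lower value of each pair where KO carried Cy5. The highest members were Cdc25b at 0.58 and 0.05 (log2 0.31, SE 0.17), Anln, a scaffold of the cleavage furrow, at 0.17, Ccnb1 at 0.08, Nuf2 at 0.06 and Bub3 at 0.04. In whole tissue, fewer cycling cells and less RNA per cell cannot be told apart.

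Ratios of bright probes were spread less than those of dim ones. The spread (median absolute deviation) was 0.06 among genes with a log2 intensity of 14 and over, which held 14 members. It was 0.30 among genes under 10, which held 5. Markers of cell types had these values, with no gene past the threshold: all 13 colon epithelium markers lay below WT, with a median of -0.14 and pair medians of -0.18 and -0.10, while all 6 skeletal muscle markers lay above it, with a median of 0.29, and so did all 8 fibroblast markers, with a median of 0.13. Markers of B and germinal centre cells, which can divide rapidly, had pair medians of -1.06 and 0.85 over 3 genes, and the 10 crypt base markers had -0.36 and -0.01. Medians were 0.15 for smooth muscle, 0.25 for T cells, 0.27 for myeloid cells, 0.26 for endothelium and 0.24 for squamous epithelium. The part of these cell types in the member ratios was not tested.

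The difference of the KO effect between tissue and organoids was tested in 1 model for 25 members. The median of tissue minus organoids was -0.62, against -0.08 over 9131 genes, and 24 of 25 members had the lower value in tissue. No member passed, and no gene did (0%; 11 members and 1120 genes had an unadjusted p under 0.05). For Ttk the KO over WT means were -0.22 in tissue and 0.90 in organoids, a difference of -1.13 (SE 0.15, adjusted p = 0.206). Kif11 had -0.41 and 0.58, a difference of -0.99 (SE 0.23, adjusted p = 0.296), and Mki67 had -0.02 and 0.50, a difference of -0.52 (adjusted p = 0.292). The spread in this model comes from 2 tissue pairs and 2 organoid replicate ratios that share arrays, and the unadjusted counts rest on it. Its standard error for Ttk, 0.15, is below the 0.27 of the organoid model, and the arrays with KO and WT gave 2.20 and -0.12 for Ttk. Of the 24 members fitted in both systems, 10 were below 0 in both tissue pairs and above 0 in both organoid replicate ratios, against 13.3% of all genes. They were Bub1b, Ccna2, Ect2, Kif11, Kif4, Mad2l1, Ndc80, Tpx2, Ttk and Ube2c. On the organoid side the KO and WT arrays disagreed, as described.

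**Figure D4:**
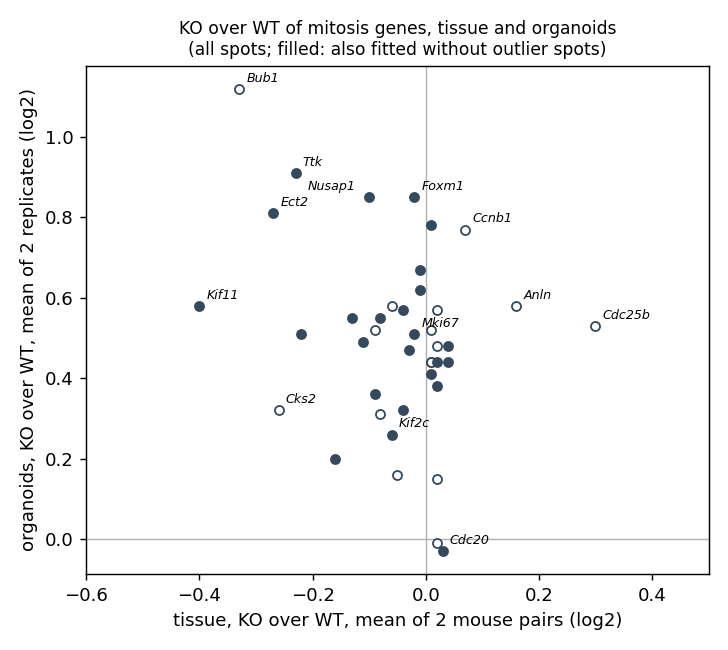
KO over WT of each mitosis gene in tissue (horizontal, mean of 2 mouse pairs, log2) against organoids (vertical, mean of 2 replicate ratios, log2), with all spots included. Filled points are members that could also be fitted with outlier spots left out; nearly all points lie above 0 in organoids, with Cdc20 at 0.03 in tissue and -0.04 in organoids in the model without outlier spots.

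A list of 118 other mitosis genes was measured beside the members. In KOWI against WT 8 of 90 tested passed the threshold, all higher, with a list median of 0.34; over all genes 521 of 9894 (5.27%) passed, 323 of them higher. Kif20b, a kinesin of cytokinesis, rose 3.81-fold (replicates 1.49 and 2.37, log2 1.93, SE 0.30, adjusted p = 0.0328). Wee1, the kinase that inhibits Cdk1, rose 3.23-fold (1.18 and 2.20, log2 1.69, adjusted p = 0.0337), and Cep192, a centrosome scaffold, rose 2.61-fold (1.32 and 1.45, adjusted p = 0.0371). The others were Sgo1, the protector of centromeric cohesion, at 1.58, Knl1, a kinetochore scaffold that recruits Bub1, at 1.34, Aspm, a spindle pole protein, at 1.29, Ncapd3, a condensin II subunit, at 1.22 and Cenpn, a centromere protein, at 1.16. With outlier spots kept, which brings the genes tested to 14665 and the calls over all genes to 60, none of these 8 passed. Lowest in that contrast were Psrc1 at -0.85 (adjusted p = 0.0564) and Kif2a at -0.49. In the other contrasts none of these genes passed. Their medians were -0.04 in tissue over 113 genes, 0.37 in KO against WT with 83 of 90 positive, and 0.09 in KOWI against KO. In tissue the range ran from Lin9, a subunit of the DREAM and MuvB complexes, at -0.46 and Bora at -0.40 to Psrc1 at 0.19 and Stag2 at 0.20. In KO against WT it ran from Psrc1 at -1.80 (adjusted p = 0.17) and Stag2 at -0.15 to Cenpp at 1.05 and Kif20b at 1.41, and in KOWI against KO from Kif2a at -0.68 and Kif22 at -0.47 to Psrc1 at 0.95 and Wee1 at 1.19.

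Genes of G1/S and replication had a median close to that of the members in each contrast. In KO against WT all 26 tested were positive, with a median of 0.47, from Pcna at 0.03 and Rfc3 at 0.28 to Uhrf1 at 0.99 and Hells at 1.06, and none passed. In KOWI against WT 2 of 26 rose, beside 5.27% of all genes called in either direction, namely Hells at 1.61 and Pola1, the catalytic subunit of DNA polymerase alpha, at 1.40 (adjusted p = 0.0448), with a list median of 0.43 and Mcm7 at 0.04. In KOWI against KO the median was 0.01, with Mcm7 at -0.50, Pola1 at 0.52 and Hells at 0.56, and in tissue it was -0.09 with 27 of 34 negative, from Hells at -0.40 and Cdt1 at -0.29 to Gins3 at 0.12 and Rrm2 at 0.24. Neither contrast had a call among them.

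Among 20 tested genes of CDK inhibitors, pocket proteins and E2F factors, which gate entry into the cycle, 1 rose and 1 fell in KOWI against WT. Rb1, the retinoblastoma gene whose protein restrains E2F, fell by 2.03 on the log2 scale (replicates -1.84 and -2.22, SE 0.20, adjusted p = 0.0182), which is 4.07-fold. In KOWI against KO it had -1.34 and -1.87 (log2 -1.61, adjusted p = 0.0559), and in KO against WT -0.50 and -0.34. Cdkn2a, which encodes p16 and p19ARF, rose 2.49-fold in KOWI against WT (1.2 and 1.43, log2 1.31, adjusted p = 0.0244). It had 1.58 and 1.81 in KO against WT (log2 1.70, adjusted p = 0.17) and -1.50 and -0.49 in tissue. Cdkn1a, the p53 target that encodes p21, an inhibitor upstream of DREAM, had -0.38 and -0.15 in KO against WT, -0.06 and -0.61 in KOWI against WT and -0.12 and -0.16 in tissue, and it passed in none. With outlier spots kept neither Rb1 nor Cdkn2a passed, and neither did any G1/S gene. The remaining extremes were E2f8 at 0.81 in KO against WT, E2f7 at 0.66 and E2f2 at -0.56 in KOWI against WT, E2f1 at 0.18, E2f6 at 0.08 and E2f2 at -0.84 in KOWI against KO, and Cdkn2c at 0.23, E2f6 at 0.18 and E2f2 at -0.30 in tissue.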

How the data were processed

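Per the file headers, spot intensity was read by the authors using Agilent Feature Extraction 12.2.0.7 (protocol GE2_1200_Dec17, array design 074809, probe coordinates on mm9). Mean and background intensity values were used as deposited, before any normalization. The deposited log10 ratios set Cy5 over Cy3 after background subtraction, detrending and dye normalization. A table of log2 values was also deposited by the authors. It followed the scanner ratio with a slope of 0.970 to 1 and column medians from -0.000351 to 0.0173; how it was centred is not given in the sources used here. Members and lists were chosen with earlier results of these data known.

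The analysis used limma 3.58.1 in R 4.3.3, with normexp correction with an offset of 50, loess within each array, control and outlier spots given weight 0 and outlier spots left out. Of 62976 spots 3671 were controls. Of 56605 probes, a RefSeq table named 35405 by accession, 9124 by symbol and 25 by an older name, leaving 12051 without one. A gene took its brightest probe and was tested if all channels of 1 or more groups exceeded background clearly. Tissue pair ratios were tested against 0. The 6 organoid array ratios gave 6 sample values by least squares, and groups were compared with replicate number (also the dye) as a term. Tests used lmFit and eBayes with Benjamini-Hochberg adjustment over all genes tested and a threshold of 0.05; the fits were tested on simulated data. Precision is limited by how few arrays there were. The genes named are all members that pass, otherwise the 5 highest and 5 lowest of each contrast, 11 key members, and the 2 highest and 2 lowest of each other list (called genes are added); for the other mitosis genes the rule was applied to the pooled list. A gene that the rule would name among the G1/S genes is not reported here. The members were not tested as a set. The alternatives are given in the closing section.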

Additional observations from a re-analysis of the deposited data

How the results depend on the processing

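Under the alternatives, 158 counts and medians and 350 single-gene values kept their side of the threshold or moved by less than the replicate spread. The other 14 counts and medians moved, and 20 single-gene values passed the threshold where they had not. For medians the spread was the standard deviation of the 2 replicate or pair medians. It was 0.42 in KO against WT, 0.66 in KOWI against WT, 0.22 in KOWI against KO and 0.02 in tissue. In the organoid contrasts with WT it is near the size of the medians, 0.57 and 0.53, so a median kept there says little. In tissue the median of -0.02 was -0.05 with the scanner software's ratios, -0.04 with the mean of all probes of a gene and -0.05 with the brightest probe under a log2 intensity of 14. Taking the 6 arrays as independent counts each sample more than once. Members past the threshold then numbered 6 in KO against WT, 8 in KOWI against WT and 2 in KOWI against KO. In the reported model each of these counts was 0. In each of these contrasts only 17 members could be fitted under this setting, against 24 in the reported model. In KO against WT calls rose over all genes as well, to 664 of 7426 from 0 of 9894. For the KOWI contrasts the calls over all genes under this setting are not given here. The 8 and 2 members therefore cannot be set against a share of all genes. In KOWI against WT the count was 1 with the mean of all probes and 1 with the brightest probe under 14, and it ranged from 0 to 5 when 1 sample was left out, with 1 without WT replicate 1 and 5 without KO replicate 1; fewer members could be fitted there, 17 and 18. For the mean of all probes, the brightest probe under 14 and the left-out samples, calls over all genes are not given here either. These member counts in KOWI against WT therefore cannot be set against a share of all genes. The median in KOWI against KO ranged from -0.27 without KOWI replicate 2 to 0.34 without KOWI replicate 1. Leaving out single arrays with all spots kept, an alternative chosen after the data were seen, gave -0.31 without the array of KOWI2 and KO1 and -0.31 without that of KO2 and KOWI1. Genes called in KOWI against WT numbered 521 in the reported model, 143 with the scanner software's ratios, 226 without the filter on dim probes, 60 with outlier spots kept, 4 with the authors' value table, and 0 with only the arrays that hold both groups.

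The replicate number is the dye in the organoids and the mouse pair in tissue. Without the replicate block the member medians were -0.02 in tissue, 0.57 in KO against WT, 0.53 in KOWI against WT and 0.02 in KOWI against KO. The organoid medians could not change, because each organoid group holds each replicate number once, so only errors and p-values could. In each contrast 0 members passed. Over all genes 388 and 38 were called in the KOWI contrasts, against 521 and 42. The block changed no call of a member. Leaving out a tissue pair gives a value and no test. With 2 replicates a group, residual degrees of freedom are few, and the number of arrays limits what differences can be detected.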

Other observations

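The tissue ratios of some members followed the dye more than the mouse pair. Ndc80, the kinetochore's microtubule coupler, had 0.17 and 0.29 on the arrays with KO in Cy5 and -0.49 and -0.63 on those with KO in Cy3. Bub1 went the other way, with -0.66 and -0.62 against -0.17 and 0.13. The mean of both orientations cancels such a dye effect. On the organoid arrays no dye swap of the same samples was made.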
